A study of Homo sapiens with 39 samples.

Results

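Guides against 7 genes of the RNA m6A machinery were followed through pooled CRISPR knockout screens of A375, a BRAF-mutant human melanoma line: METTL3, METTL14, WTAP, RBM15, ZC3H13, CBLL1 and YTHDF2. A guide was assigned to a gene when its name, without the trailing guide number, was that gene's symbol. The whole-genome library held all 7 genes among 19113, with 28 of its 77441 guides, 4 per gene. The epigenetic library held 3 of them (METTL3, METTL14 and CBLL1) among 1115 genes, with 30 of its 12214 guides, 10 per gene. Every one of these guides passed the filter on low counts. WTAP, RBM15, ZC3H13 and YTHDF2 were measured in the whole-genome screen only.

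N6-methyladenosine (m6A) is a methyl mark placed on messenger RNA while it is being made. METTL3 carries the catalytic site of the methyltransferase, and METTL14 pairs with it and helps to hold the RNA. WTAP, RBM15, ZC3H13 and CBLL1 (also called HAKAI) belong to a regulatory complex that binds this pair and directs it to its sites. YTHDF2 is a reader in the cytoplasm that binds the mark and brings marked transcripts to decay enzymes, and FTO and ALKBH5 are the demethylases that remove it.

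All cells screened already lacked a subunit of Mediator, the coactivator that links transcription factors to RNA polymerase: either MED12 or MED23. MED12 knockout cells with the epigenetic or the whole-genome library were grown in 2 µM vemurafenib, which inhibits mutant BRAF, or in DMSO, the solvent, and were sampled at days 8 and 14 and at day 0. MED23 knockout cells with the epigenetic library were grown in 1 µM vemurafenib or in DMSO and were sampled at day 14 and at day 0. Each of the 13 groups held 3 libraries, 39 in all, made by PCR of guides from genomic DNA. The labels do not say whether the 3 libraries came from separate infections or cultures, nor whether a knockout line is 1 clone. All p-values therefore hold for these libraries alone. No molecular identifiers are mentioned, so PCR reads are not independent molecules. Because knockout line, drug dose and screen go together, differences between MED23 and MED12 knockout cells cannot be told apart from differences of dose or screen.

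Guide counts summed to 16385695 to 20814734 per library in the epigenetic screen of MED12 knockout cells, 22846325 to 28994690 in that of MED23 knockout cells and 47766947 to 87591804 in the whole-genome screen. In the whole-genome screen 176 to 7939 guides per library had no read. Guides against MED12 itself did not pass in MED12 knockout cells (median log2 fold change -0.24 for vemurafenib against DMSO at day 14, edgeR/RRA adjusted p = 1). In MED23 knockout cells the MED12 guides took 13309 to 37982 CPM of each vemurafenib library, against 203 to 349 CPM of each DMSO library, and a scaling on library totals alone moved log2 changes for vemurafenib against DMSO there by -1.08.

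Abundance is given in CPM, reads of a guide scaled to a fixed library size, after TMM scaling, for a guide or summed over the guides of a gene. After TMM scaling the CPM of all guides do not sum to the same total in each library. The gene score is the mean over a gene's guides of log2 CPM, with 0.5 added to each count. Its change is given with the standard error from the libraries, taken as unpaired. A gene was called when robust rank aggregation (RRA) of its guides' edgeR tests gave an adjusted p under 0.05 over all genes. The RRA p-value measures how far a gene's guides rank together at 1 end of all gene guides. Spread between libraries enters it only through the edgeR tests of single guides. TMM sets the bulk of guides to no change. Control guides stood higher than that bulk after growth. Scaling on them shifted log2 changes of DMSO at day 14 against day 0 by -0.42 in the epigenetic screen of MED12 knockout cells, by -1.03 in MED23 knockout cells and by -0.67 in the whole-genome screen. Library totals alone as the scale shifted the same changes by -0.47, -0.13 and -1.14. For vemurafenib at day 14 against day 0 they shifted them by -0.76, -1.21 and -1.74. Rises of summed CPM against day 0 are to be read beside these shifts.

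Guides against METTL3, the catalytic writer, fell in MED23 knockout cells grown in DMSO and stood higher in vemurafenib than in DMSO. Summed over its 10 guides, METTL3 stood at 514, 481 and 600.2 CPM in the 3 vemurafenib libraries, at 160.5, 183 and 190.4 CPM in the 3 DMSO libraries and at 504, 504 and 506 CPM at day 0. The DMSO libraries lay below all others, while the vemurafenib libraries fell on both sides of those of day 0. The gene score was 2.09 ± 0.17 (SE, n = 3 libraries per group) higher in vemurafenib than in DMSO, with a median log2 fold change of 1.85 and all 10 guides positive (edgeR/RRA adjusted p = 7.92e-05). In DMSO at day 14 it was 2.14 ± 0.14 lower than at day 0 (a change of -2.14), with a median of -1.88 and 0 of 10 guides positive (edgeR/RRA adjusted p = 0.0107). Vemurafenib at day 14 against day 0 gave a score change of -0.06 ± 0.10 and a median of 0.11 (edgeR/RRA adjusted p = 1). Against control guides that last change was -0.87.

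The single METTL3 guides in MED23 knockout cells moved together. Guide 2 had 24.4, 19.1 and 24.4 CPM in vemurafenib, 0.738, 3.35 and 0.920 CPM in DMSO and 28.9, 28.5 and 25.9 CPM at day 0. Guide 9 had 15.8, 33.6 and 26.6 CPM in vemurafenib, 1.93, 4.36 and 5.35 CPM in DMSO and 29.6, 40.2 and 45.3 CPM at day 0. Guide 4 changed least, with 31.5, 54.9 and 71.6 CPM in vemurafenib, 35.7, 30.4 and 40.5 CPM in DMSO and 46.3, 53.6 and 49.5 CPM at day 0. For all 10 guides the 3 DMSO libraries lay wholly below the 3 day-0 libraries, which held for 34.6% of all gene guides. For 8 guides the vemurafenib libraries lay wholly above the DMSO libraries, which held for 16.2%. Tested singly by edgeR, 7 of 10 guides rose in vemurafenib against DMSO (7.98% of all guides did) and 8 of 10 fell in DMSO against day 0 (23.8% did).

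METTL14, the partner of METTL3, was likewise lowest in DMSO in MED23 knockout cells. Its summed abundance was 764, 779 and 813 CPM in vemurafenib, 419, 327 and 361 CPM in DMSO and 549, 565 and 571 CPM at day 0. None of the 3 groups overlapped, and vemurafenib stood highest. The score was 1.51 ± 0.13 higher in vemurafenib than in DMSO (median log2 fold change 1.91, 10 of 10 guides positive, edgeR/RRA adjusted p = 0.00275). METTL3 and METTL14 were thus 2 of the 3 measured genes called as higher in vemurafenib, against 7.8% of all genes in this comparison. In DMSO at day 14 the METTL14 score was 1.15 ± 0.12 lower than at day 0 (a change of -1.15), which did not pass (median -1.24, edgeR/RRA adjusted p = 0.218) but passed with limma on gene scores (adjusted p = 1.84e-06), as did 62.1% of all genes. METTL3 was the 1 gene of 3 called as lower there, against 12.6% of all genes. Vemurafenib at day 14 against day 0 gave 0.36 ± 0.05 for METTL14 (edgeR/RRA adjusted p = 0.508, and 0.0208 with limma on gene scores, by which 54.1% of all genes passed). Against control guides that change was -0.46, the opposite sign. By edgeR/RRA 0 of 3 genes were called in that comparison, in which 16.2% of all genes were.

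The METTL14 guides in MED23 knockout cells are given by whether they passed singly, although all 10 were positive for vemurafenib against DMSO. Guides 3, 4, 5, 6, 8 and 9 each rose in vemurafenib against DMSO, by 1.86 to 2.64 on the log2 scale, and each fell in DMSO against day 0, with log2 changes of -2.39 to -1.08 (edgeR per guide, adjusted p = 0.000490 to 0.0281 and 0.000858 to 0.0255). METTL14 guide 8, for example, had 56.0, 28.6 and 47.8 CPM in vemurafenib, 1.58, 10.6 and 9.13 CPM in DMSO and 30.8, 21.7 and 34.9 CPM at day 0. The other 4 guides did not pass in either comparison. Of all gene guides 7.98% passed as higher in vemurafenib against DMSO, and 23.8% as lower in DMSO against day 0. For 7 of the 10 METTL14 guides the DMSO libraries lay wholly below those of day 0, as they did for 34.6% of all gene guides. METTL14 guide 1 had 113, 122 and 97.9 CPM in vemurafenib, 136, 80.1 and 87.8 CPM in DMSO and 103, 110 and 102 CPM at day 0, with overlapping groups.

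CBLL1, a ubiquitin-ligase-like member of the regulatory complex, was not called by edgeR/RRA in MED23 knockout cells. It stood at 650.3, 1053 and 542 CPM in vemurafenib, 827, 554 and 504 CPM in DMSO and 719.6, 747 and 716 CPM at day 0. The vemurafenib and DMSO libraries overlapped, and the score differed by 0.31 ± 0.23 (edgeR/RRA adjusted p = 1). In DMSO at day 14 against day 0 the CBLL1 score change was -0.50 ± 0.15, and the 3 DMSO scores lay below those of day 0. For 6 of 10 guides the DMSO libraries lay wholly lower, as they did for 34.6% of all gene guides. That change passed with limma on gene scores (adjusted p = 0.0138), as did 62.1% of all genes, and not with edgeR/RRA (adjusted p = 1). CBLL1 guide 4 held the extremes, with 90.1, 429 and 52.7 CPM in vemurafenib, 334, 69.0 and 42.7 CPM in DMSO and 88.1, 99.1 and 84.2 CPM at day 0, so that 1 library of each day-14 group stood apart from its own group.

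**Figure D1:**
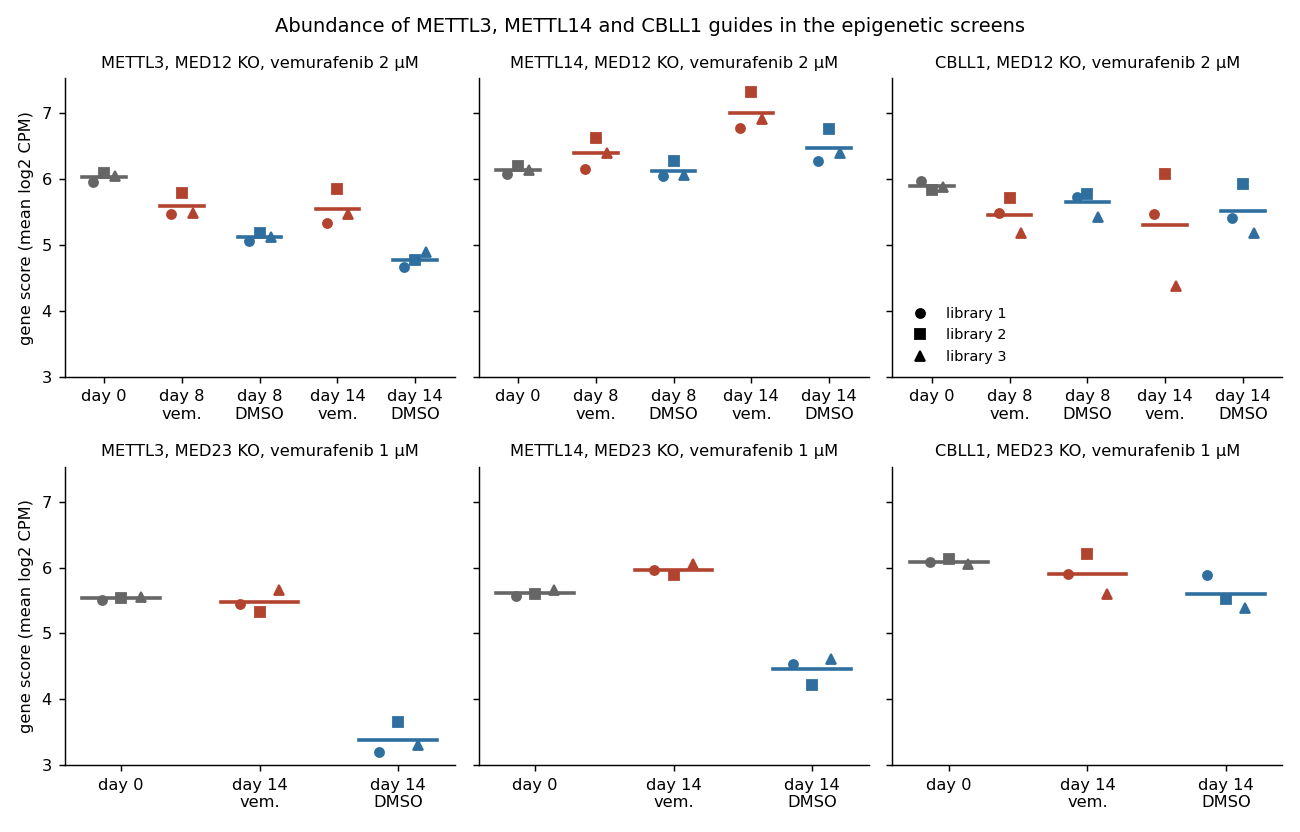
Gene score (mean log2 CPM over 10 guides) of METTL3, METTL14 and CBLL1 in each library of the 2 epigenetic screens, with a bar at each group's mean; symbols mark the library number, red is vemurafenib, blue is DMSO and grey is day 0. METTL3 and METTL14 stand lowest in DMSO in MED23 knockout cells, at means of 3.39 and 4.46, while in MED12 knockout cells METTL14 stands highest in vemurafenib at day 14, at a mean of 7.00.

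In MED12 knockout cells METTL3 was higher in vemurafenib than in DMSO at both days. Its summed abundance was 717, 778 and 749 CPM at day 0. At day 8 it was 1002, 890.4 and 851 CPM in vemurafenib and 799.8, 653 and 647 CPM in DMSO, and at day 14 it was 1892, 1796 and 1611 CPM in vemurafenib and 1161, 888 and 934 CPM in DMSO. The vemurafenib libraries lay above the DMSO libraries of the same day, without overlap. The score was higher in vemurafenib by 0.46 ± 0.11 at day 8 (median 0.40, 10 of 10 guides positive, edgeR/RRA adjusted p = 0.00191) and by 0.78 ± 0.17 at day 14 (median 0.41, 7 of 10 positive, edgeR/RRA adjusted p = 0.000579). METTL3 was 1 of 3 genes called as higher at each day, against 1.08% of all genes at day 8 and 0.897% at day 14. The day-8 call did not hold without library 2 (adjusted p = 0.0757) or library 3 (0.0659) of DMSO, nor with limma on gene scores (0.999), and the day-14 call did not hold without library 1 of vemurafenib (0.1495); these are edgeR/RRA adjusted p-values except for limma.

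At day 14 METTL3 guides 2, 3 and 4 had the highest log2 fold changes, and guide 7 supplied most of the difference in summed reads. Guide 2 had 119.7, 65.1 and 4.34 CPM in vemurafenib and 8.50, 4.54 and 6.31 CPM in DMSO. Guide 3 had 12.7, 5.61 and 12.7 CPM in vemurafenib and 0.732, 0.776 and 1.73 CPM in DMSO, and guide 4 had 150.4, 123 and 46.4 CPM in vemurafenib and 21.4, 30.0 and 15.2 CPM in DMSO. Guides 3 and 4 did not overlap between the groups, and guide 2 did because of vemurafenib library 3. Their log2 fold changes were 3.29, 3.25 and 2.27, and none of the 10 METTL3 guides passed singly by edgeR (adjusted p = 0.107 for guide 3). For guides 3, 4 and 7, 3 of the 10, the vemurafenib libraries lay wholly above those of DMSO, as they did for 2.03% of all gene guides. METTL3 guide 7 averaged 1119 CPM in vemurafenib and 518 CPM in DMSO, a log2 fold change of 1.11, beside 1766 CPM and 994 CPM summed over all 10 guides.

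METTL3 guide 7 went the opposite way to most of its set during growth of MED12 knockout cells. It had 105.9, 84.3 and 97.2 CPM at day 0, 468, 357 and 368 CPM in vemurafenib and 366, 213 and 245 CPM in DMSO at day 8, and 1165, 1224 and 969 CPM in vemurafenib and 679.7, 447 and 429 CPM in DMSO at day 14. It rose in DMSO at day 14 against day 0 by 2.44 on the log2 scale (edgeR per guide, adjusted p = 0.000816). Guide 3 had a log2 change of -5.07 there (edgeR per guide, adjusted p = 0.00247), with 31.5, 37.6 and 40.7 CPM at day 0 beside its DMSO values above. Guide 7 held 60.2% to 68.2% of all METTL3 reads in the day-14 vemurafenib libraries and 45.9% to 58.5% in the day-14 DMSO libraries. Without it, the summed abundance of METTL3 was 647 ± 78 CPM in vemurafenib at day 14, 476 ± 32 CPM in DMSO at day 14 and 652 ± 41 CPM at day 0 (SD, n = 3 libraries each). In MED23 knockout cells the same guide had 98.2, 57.0 and 73.4 CPM in vemurafenib, 22.5, 41.5 and 36.9 CPM in DMSO and 51.4, 50.3 and 54.5 CPM at day 0. The growth change of METTL3 guide 7 in MED23 minus that in MED12 knockout cells was -2.97 on the log2 scale (edgeR per guide, adjusted p = 0.00318).

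The growth change of METTL3 in MED12 knockout cells depended on how guides were combined. The score change in DMSO at day 14 against day 0 was -1.26 ± 0.08, with a median log2 fold change of -0.86 and 2 of 10 guides positive (edgeR/RRA adjusted p = 0.0672). It passed with limma on gene scores (adjusted p = 2.74e-05, where 35.7% of all genes passed) and with control-guide scaling (median -1.28, edgeR/RRA adjusted p = 0.0317). Counts summed over the guides gave the opposite sign, a log2 fold change of 0.41 (edgeR adjusted p = 0.0402). Library totals alone as the scale shift log2 changes in that comparison by -0.47. Vemurafenib at day 14 against day 0 gave a score change of -0.48 ± 0.16 (edgeR/RRA adjusted p = 0.395), and summed counts gave 1.24 (edgeR adjusted p = 2.12e-05).

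METTL14 guides in MED12 knockout cells stood above the start in sum, with single guides on both sides of it. Summed abundance was 854, 888 and 866 CPM at day 0. At day 8 it was 1176, 1309.7 and 1083 CPM in vemurafenib and 1015, 1077 and 951 CPM in DMSO, and at day 14 it was 2114, 2676 and 1729 CPM in vemurafenib and 1506, 1581 and 1298 CPM in DMSO. All 12 later libraries lay above the 3 of day 0, while the day-8 DMSO gene scores overlapped those of day 0. METTL14 was called as higher in DMSO at day 14 than at day 0 (score change 0.34 ± 0.15, median 1.03, 7 of 10 guides positive, edgeR/RRA adjusted p = 0.0295), the 1 of 3 genes called there against 2.78% of all genes. It was also called in vemurafenib at day 14 against day 0 (0.87 ± 0.17, median 1.41, 8 of 10 positive, edgeR/RRA adjusted p = 0.0233), again 1 of 3 genes against 2.24% of all genes.

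The size and the call of the METTL14 rise without drug depended on how it was computed. Scaled on control guides, its score change in DMSO was -0.08 while the median over guides was 0.61 and the call held (edgeR/RRA adjusted p = 0.0242). With limma on gene scores it did not pass (adjusted p = 0.133). The adjusted p also missed 0.05 without any one of the 3 day-14 DMSO libraries (edgeR/RRA adjusted p = 0.0853 to 0.236), while the median log2 fold change stayed at 0.77 to 0.95. The call in vemurafenib against day 0 did not hold without library 1 (0.0896) or library 2 (0.0967) of vemurafenib, where the medians were 1.35 and 1.2. METTL14 guides 5, 7, 9 and 10 rose singly in vemurafenib against day 0 (edgeR per guide, adjusted p = 0.00652 to 0.0312), against 3.61% of all guides. METTL14 guide 5 had 477, 872 and 406 CPM in vemurafenib and 171, 162 and 181 CPM at day 0, and METTL14 guide 7 had 227, 46.8 and 129.9 CPM in vemurafenib and 28.4, 28.7 and 27.2 CPM at day 0. METTL14 guide 3 went the other way, with 41.3, 34.8 and 39.6 CPM in vemurafenib and 84.9, 68.6 and 96.7 CPM at day 0. Vemurafenib against DMSO gave a METTL14 score change of 0.26 ± 0.16 at day 8 and 0.53 ± 0.22 at day 14 (edgeR/RRA adjusted p = 0.189 and 0.307), with a standard error that does not use the library numbers. Between same-numbered libraries the day-14 differences were 0.51, 0.56 and 0.53, and with the number as a block the adjusted p was 0.241 (edgeR/RRA).

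CBLL1 was not called in any comparison of MED12 knockout cells in the epigenetic screen. It stood at 734, 722 and 717 CPM at day 0, at 578, 1887 and 589 CPM in vemurafenib at day 14 and at 494, 1029 and 638 CPM in DMSO at day 14. Library 2 was the highest of both day-14 groups, which overlapped. In that library CBLL1 guide 4 reached 909 CPM in vemurafenib and 385 CPM in DMSO, against 122 CPM at day 0.

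**Figure D2:**
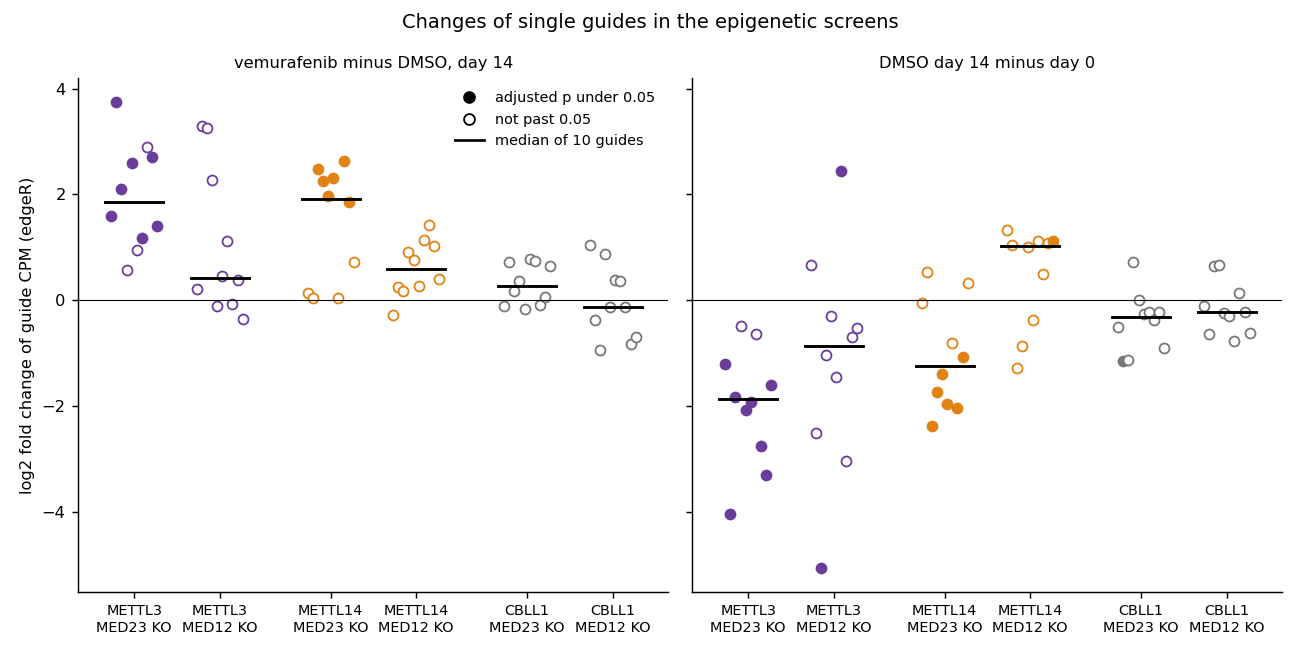
Log2 fold change of each of the 10 guides of METTL3, METTL14 and CBLL1 from the edgeR fit, for vemurafenib minus DMSO at day 14 (left) and DMSO at day 14 minus day 0 (right), in MED23 and MED12 knockout cells; filled points passed an adjusted p of 0.05 and bars are medians. During growth METTL14 guides have a median of -1.24 in MED23 and 1.03 in MED12 knockout cells, and METTL3 guide 7 is the filled point at 2.44.

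The 2 knockout lines were compared in 1 fit to their day-0 and day-14 libraries. The growth change of METTL14 in MED23 minus that in MED12 knockout cells was -1.39 ± 0.20 in score, with a median of -1.39 and 0 of 10 guides positive (edgeR/RRA adjusted p = 0.0346). It was the 1 gene of 3 called there, against 3.95% of all genes called as lower. The call did not hold without library 1 (adjusted p = 0.0575) or 2 (0.143) of DMSO in MED12 knockout cells, nor without library 2 of day 0 (0.0517) or of DMSO (0.107) in MED23 knockout cells, all edgeR/RRA. For METTL3 the same difference was -0.79 ± 0.16 in score with a median of -1.21 (edgeR/RRA adjusted p = 0.106), and for CBLL1 it was -0.01 ± 0.27 (edgeR/RRA adjusted p = 1). Scaling on control guides moved all differences of growth between the lines by -0.71, to -2.10 for METTL14, -1.49 for METTL3 and -0.72 for CBLL1.

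The vemurafenib effect was numerically larger in MED23 than in MED12 knockout cells for both methyltransferase genes without a call. The difference of the effects was 1.11 ± 0.24 in score for METTL3 (median 0.74, edgeR/RRA adjusted p = 0.0997) and 0.78 ± 0.26 for METTL14 (median 0.83, edgeR/RRA adjusted p = 0.539). With limma on gene scores both passed (adjusted p = 0.00299 and 0.0225), as did 12.9% of all genes. None of the 3 genes was called by edgeR/RRA, against 4.22% of all genes, and METTL3 alone had an unadjusted p under 0.05. Within MED12 knockout cells, the vemurafenib effect on METTL3 was larger at day 14 than at day 8 by 0.31 ± 0.20 in score (median 0.17, 6 of 10 guides positive, edgeR/RRA adjusted p = 0.0290). It was 1 of 3 genes called, against 0.538% of all genes. That call held without only 3 of the 12 libraries in turn, and the median was -0.09 when library totals alone were used as the scale.

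RBM15, the RNA-binding subunit that brings the complex to its sites, had the highest gene-score change of all 19101 genes tested genome-wide in MED12 knockout cells, in DMSO at day 14 and in vemurafenib at day 14, each against day 0. Summed over 4 guides it had 39.7, 69.7 and 51.6 CPM at day 0. At day 8 it had 251, 507 and 303 CPM in vemurafenib and 167.8, 404 and 249 CPM in DMSO. At day 14 it had 1262, 2890.5 and 1808 CPM in vemurafenib and 535, 1370.5 and 836 CPM in DMSO. Every later library lay above all of day 0, and every day-14 library lay above all those of day 8.

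The mean abundance of RBM15 at day 14 was 37.0 times that of day 0 in vemurafenib and 17.0 times that of day 0 in DMSO. Library totals alone as the scale shift these changes by -1.74 and -1.14 on the log2 scale. The score change in DMSO was 3.93 ± 0.46, with a median of 4.05 over guides (edgeR/RRA adjusted p = 0.00113), and the next highest gene had 3.48. In vemurafenib against day 0 it was 5.15 ± 0.40, with a median of 5.21 (edgeR/RRA adjusted p = 0.000515), and the next highest gene had 4.68. RBM15 was the 1 of 7 m6A genes called in each of these comparisons, against 0.0314% of all genes called as higher in DMSO and 0.0366% in vemurafenib. Scaled on control guides its score changes were 3.26 in DMSO and 4.47 in vemurafenib against day 0. Both calls held in all 14 alternatives, which included leaving out each library of the compared groups.

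All 4 RBM15 guides took part. Guide 4 had 14.9, 22.1 and 18.6 CPM at day 0, 86.6, 94.7 and 95.7 CPM in vemurafenib and 73.5, 84.0 and 85.3 CPM in DMSO at day 8, and 320.4, 377 and 311 CPM in vemurafenib and 254, 214 and 252 CPM in DMSO at day 14. Guide 3 had 11.7, 13.3 and 12.8 CPM at day 0, 94.2, 94.7 and 70.3 CPM in vemurafenib and 47.6, 58.0 and 56.7 CPM in DMSO at day 8, and 471, 448 and 317 CPM in vemurafenib and 149, 183 and 151 CPM in DMSO at day 14. For these 2 guides the vemurafenib libraries lay above the DMSO libraries of the same day, at day 8 and at day 14. The share of all gene guides that did so is not given here, so this separation is a description only.

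RBM15 guides 1 and 2 varied more between libraries. Guide 1 had 10.1, 26.6 and 9.94 CPM at day 0, and at day 14 it had 235, 1435 and 276 CPM in vemurafenib and 87.5, 823 and 184.5 CPM in DMSO. Guide 2 had 2.93, 7.72 and 10.3 CPM at day 0, and at day 14 it had 235, 630.0 and 904 CPM in vemurafenib and 43.9, 150.4 and 248 CPM in DMSO. The library that was highest at day 0, library 2 for guide 1 and library 3 for guide 2, was also the highest in both day-14 groups. For all 4 guides the day-14 DMSO libraries lay wholly above day 0, which held for 7.21% of all gene guides, and so did the day-14 vemurafenib libraries, which held for 6.32%. No guide of any gene passed singly by edgeR in this screen (RBM15 guides 0.266 to 0.336 in DMSO and 0.0971 to 0.152 in vemurafenib against day 0, adjusted p), so the calls rest on the ranks of the 4 guides combined.

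**Figure D3:**
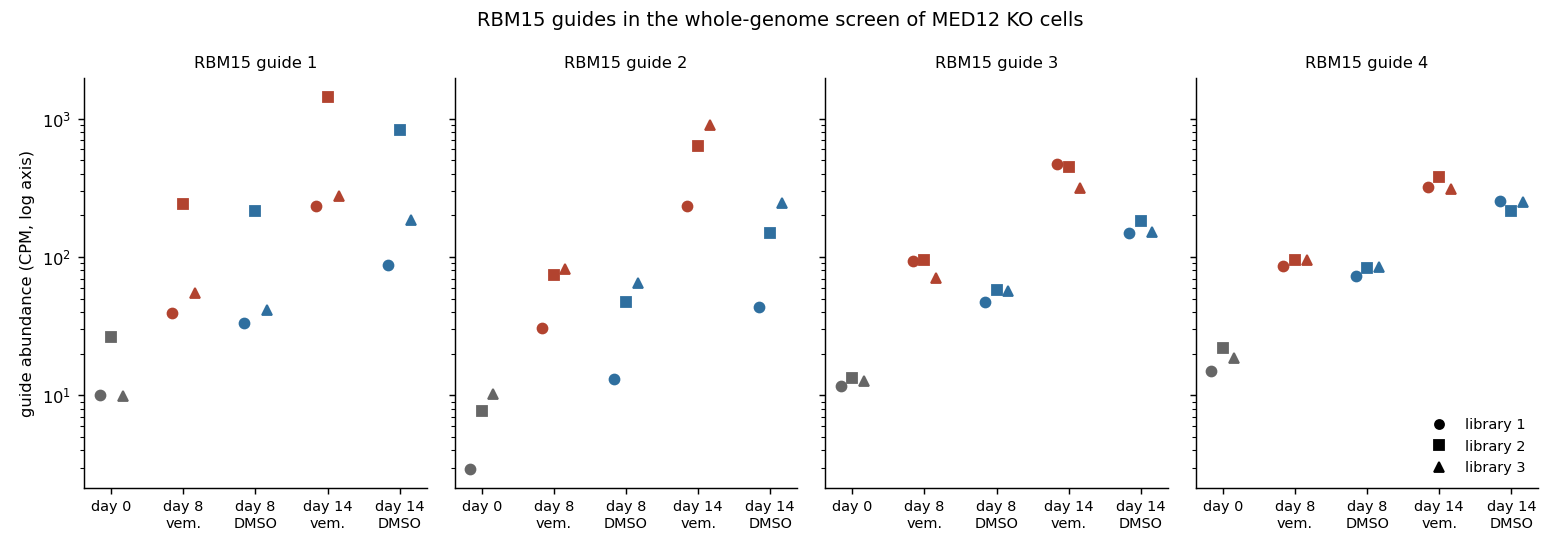
Abundance (CPM, log axis) of the 4 RBM15 guides in each whole-genome library from MED12 knockout cells, by day and treatment; symbols mark the library number. Each guide stands between 2.93 and 26.6 CPM at day 0 and between 43.9 and 1435 CPM at day 14.

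RBM15 was higher in vemurafenib than in DMSO, without passing the test. The score difference was 0.47 ± 0.47 at day 8 (edgeR/RRA adjusted p = 0.98) and 1.22 ± 0.48 at day 14 (median 1.09, 4 of 4 guides positive, edgeR/RRA adjusted p = 0.876, unadjusted p = 0.0189). These standard errors do not use the library numbers. Between same-numbered libraries the differences were 0.67, 0.43 and 0.30 at day 8 and 1.46, 1.24 and 0.95 at day 14. The day-14 scores were 8.24, 9.29 and 8.63 in vemurafenib and 6.78, 8.04 and 7.68 in DMSO, without overlap, which held for 0.9% of all genes in that direction. None of the 7 genes passed by edgeR/RRA for vemurafenib against DMSO at either day, against 0.0262% of all genes at day 8 and 0% at day 14. At an unadjusted p under 0.05, 1003 of 19101 genes passed at day 14, among them RBM15 and ZC3H13. At day 14 DESeq2 per guide and limma on gene scores also called 0 genes, and the fit with the replicate block called 1, which was not among the 7.

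ZC3H13, the zinc-finger subunit that anchors the complex in the nucleus in mouse cells, had 62.0, 56.4 and 52.5 CPM at day 0. It had 289, 204 and 209.8 CPM in vemurafenib at day 14 and 158, 69.7 and 60.4 CPM in DMSO at day 14. All vemurafenib libraries lay above those of DMSO in summed abundance, although the gene scores overlapped. The share of all genes with such a separation in summed abundance was not computed. The score difference for vemurafenib against DMSO was 1.56 ± 0.70 at day 14, rank 105 of 19101 from the highest (edgeR/RRA adjusted p = 0.759). Between same-numbered libraries it was 1.28, 1.47 and 1.94, and with the number as a block the adjusted p was 0.338 (edgeR/RRA). ZC3H13 guide 1 differed most, with 121, 19.2 and 74.8 CPM in vemurafenib and 15.5, 6.11 and 3.89 CPM in DMSO. At day 0 it had 6.45, 5.73 and 7.54 CPM. It was the 1 of 4 guides whose vemurafenib libraries lay wholly above those of DMSO. How many of all gene guides did so is not given here. Against day 0 the score change was 1.65 ± 0.48 in vemurafenib (edgeR/RRA adjusted p = 0.742) and 0.08 ± 0.52 in DMSO (edgeR/RRA adjusted p = 1).

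WTAP, the scaffold that joins METTL3 and METTL14 to the regulatory subunits, had 54.7, 66.2 and 54.0 CPM at day 0, 264, 491 and 755 CPM in vemurafenib at day 14 and 168, 499.6 and 420.5 CPM in DMSO at day 14. One guide supplied most of these reads. WTAP guide 1 had 25.1, 34.3 and 24.2 CPM at day 0, 218, 446 and 681 CPM in vemurafenib and 139.9, 478 and 365 CPM in DMSO at day 14, 82.5% to 90.9% of all WTAP reads in vemurafenib and 83.5% to 95.6% in DMSO. Without it the summed abundance was 54.9 ± 16.4 CPM in vemurafenib at day 14, 35.2 ± 18.1 CPM in DMSO at day 14 and 30.4 ± 1.3 CPM at day 0 (SD, n = 3 libraries each). The score change against day 0 was 1.43 ± 0.37 in vemurafenib and 0.59 ± 0.52 in DMSO (edgeR/RRA adjusted p = 0.825 and 0.696), and with control-guide scaling the value in DMSO was -0.08.

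METTL3 and METTL14 were not called by edgeR/RRA in the whole-genome screen, where each had 4 guides in place of 10. In counts simulated from growth in this screen, edgeR/RRA called 6% of genes with a log2 change of 2 or -2. Lack of a call in this screen therefore does not show lack of change. METTL3 had 65.6, 52.3 and 55.3 CPM at day 0, 694, 183 and 343 CPM in vemurafenib at day 14 and 449.9, 102 and 208 CPM in DMSO at day 14. Guide 2 of this library carried 632, 9.88 and 261 CPM in vemurafenib, 423, 11.5 and 172 CPM in DMSO and 23.7, 13.0 and 14.5 CPM at day 0, so libraries 1 and 3 stood above the start and library 2 did not. METTL3 guide 3 had 0.698, 2.62 and 0.443 CPM in vemurafenib, 0.298, 3.48 and 0.796 CPM in DMSO and 12.4, 5.76 and 9.27 CPM at day 0. The score change for METTL3 at day 14 was 0.18 ± 0.35 for vemurafenib against DMSO and -0.43 ± 0.16 for DMSO at day 14 against day 0, where the median over guides was 0.51 (edgeR/RRA adjusted p = 1 for both). Guides were not matched between the 2 libraries, since guide sequences were not used here.

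METTL14 had 15.3, 55.6 and 183 CPM in vemurafenib at day 14, 16.1, 42.5 and 51.7 CPM in DMSO at day 14 and 27.1, 36.1 and 38.8 CPM at day 0. METTL14 guides 1 and 4 were near 0 at day 14 in each library, with at most 1.98 CPM in vemurafenib and 1.10 CPM in DMSO, against 2.83 to 7.62 CPM at day 0. METTL14 guide 3 had 9.65, 48.9 and 24.7 CPM in vemurafenib, 6.04, 40.7 and 19.5 CPM in DMSO and 6.26, 14.1 and 15.2 CPM at day 0. The score change in DMSO against day 0 was -3.15 ± 0.85 with a median over guides of -1.93 (edgeR/RRA adjusted p = 0.832), and it passed with limma on gene scores (adjusted p = 0.0124), as did 8.39% of all genes. In vemurafenib against day 0 it was -2.03 ± 0.44 (edgeR/RRA adjusted p = 1). In the epigenetic screen of the same cells the METTL14 score changes were positive with TMM scaling, although that in DMSO was -0.08 with control guides. Mean summed abundance was 2.49 times that of day 0 in vemurafenib and 1.08 times in DMSO here, beside 2.5 and 1.68 times in the epigenetic screen. Library totals alone as the scale shift these changes by -1.74 and -1.14 on the log2 scale here. In the epigenetic screen they shift them by -0.76 and -0.47, so the ratios of the 2 screens are not on the same footing. The difference between the screens was not tested.

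CBLL1 and YTHDF2 were not called by edgeR/RRA in the whole-genome screen either. CBLL1 had 580.2, 18.1 and 44.5 CPM in vemurafenib at day 14, 148, 34.7 and 34.4 CPM in DMSO at day 14 and 46.1, 45.4 and 38.1 CPM at day 0. CBLL1 guide 2 in library 1 held 563 CPM of the vemurafenib value. YTHDF2, the reader, had 18.7, 10.0 and 118 CPM in vemurafenib at day 14, 10.7, 16.1 and 59.6 CPM in DMSO at day 14 and 23.7, 20.6 and 27.5 CPM at day 0. Library 3 was the highest of both of its day-14 groups, and those groups overlapped. The YTHDF2 score difference for vemurafenib against DMSO at day 14 was 0.28 ± 1.31 (edgeR/RRA adjusted p = 1).

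**Figure D4:**
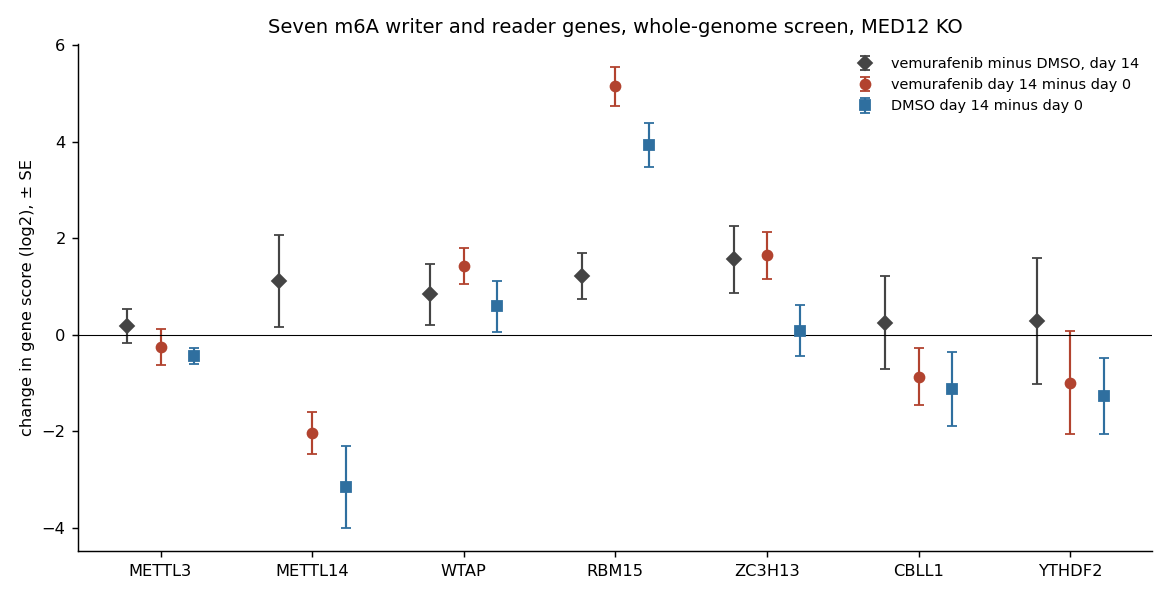
Change in gene score (log2, points, with the standard error over 3 libraries per group as bars) of the 7 genes, measured genome-wide in MED12 knockout cells, for vemurafenib minus DMSO at day 14, vemurafenib at day 14 minus day 0 and DMSO at day 14 minus day 0. RBM15 stands at 5.15 and 3.93 against day 0, and METTL14 has the lowest values, -2.03 and -3.15, which did not pass the test.

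Of 22 further genes of the m6A pathway on a list of other writers, erasers and readers, 6 were measured in the epigenetic screens. In MED23 knockout cells 2 of the 6 rose in DMSO at day 14 against day 0 and 0 fell, where 5.56% of all genes rose. They were METTL5, which methylates ribosomal RNA (score change 0.76 ± 0.10, edgeR/RRA adjusted p = 0.00148), and FMR1, an RNA-binding protein reported to bind marked transcripts (0.62 ± 0.05, edgeR/RRA adjusted p = 0.0246). METTL5 also rose in vemurafenib against day 0 (0.67 ± 0.06, edgeR/RRA adjusted p = 0.00213), 1 of the 6 genes against 6.01% of all genes. With control-guide scaling, which shifts these 2 comparisons by -1.03 and -0.81, these values have the opposite sign. By edgeR/RRA none of the 6 passed in the other comparisons of the epigenetic screens, and none of the 22 passed in the whole-genome screen.

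The demethylases did not pass in any comparison by edgeR/RRA. With limma on gene scores FTO was lower than at day 0 in MED12 knockout cells of the epigenetic screen, by a score change of -0.93 ± 0.06 in vemurafenib and -0.68 ± 0.20 in DMSO at day 14 (limma adjusted p = 0.00133 and 0.0110, where 36.2% and 35.7% of all genes passed). FTO also passed by limma against day 0 in the whole-genome screen, with score changes of -2.17 ± 0.37 in vemurafenib and -2.88 ± 0.57 in DMSO (limma adjusted p = 0.0494 and 0.0176). By limma 2339 and 1603 of 19101 genes passed in these 2 comparisons. FTO abundance in this screen was low, with mean sums of 10.8 CPM at day 0, 18.3 CPM in vemurafenib and 8.68 CPM in DMSO at day 14. The vemurafenib sum thus moved the other way from the score. In MED23 knockout cells the FTO change in vemurafenib against day 0 was 0.42 ± 0.17 with TMM scaling (limma adjusted p = 0.0176, where 54.1% of all genes passed). Control-guide scaling shifts that comparison by -0.81, which turns the sign. Summed over guides FTO had 625, 592 and 2040 CPM in these vemurafenib libraries, so library 3 stood apart. In MED23 knockout cells ALKBH5 had a score change of -0.32 ± 0.13 for vemurafenib against DMSO (edgeR/RRA adjusted p = 0.0576, limma adjusted p = 0.0290). Limma called 433 of 1115 genes there, and control-guide scaling shifts that comparison by 0.22. FTO had mean scores of 5.99 in vemurafenib and 5.88 in DMSO there. For ALKBH5 in MED12 knockout cells of the epigenetic screen they were 5.88 and 5.84 at day 14. FTO had a growth change that was 1.08 ± 0.22 higher with MED23 than with MED12 knocked out (edgeR/RRA adjusted p = 0.0511, limma adjusted p = 0.00365). Limma called 234 of 1115 genes for that difference, and control-guide scaling shifts it by -0.71. In the whole-genome screen VIRMA, the large scaffold of the regulatory complex, had a score change of -1.05 ± 0.70 in DMSO at day 14 against day 0 (edgeR/RRA adjusted p = 1).

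Among the genes whose scores were most like that of METTL3 over the 18 epigenetic libraries after day 0, each taken against the day-0 mean of its own screen, were TRRAP, WDR77, CUL2 and UBE2N, with Pearson correlations of 0.91, 0.90, 0.90 and 0.90. METTL14 came at rank 33 of 1114 genes (0.80) and CBLL1 at rank 582 (0.15). By Spearman correlation TAF6L, TADA1, CUL2, METTL17 and TRRAP led (0.94 to 0.88) and METTL14 came at rank 51. These libraries share screens and controls, and the correlation contains the difference between the screens. Over the 12 whole-genome libraries after day 0 the 5 most like METTL3 were SLC39A4, PRODH, NCLN, RNF220 and APBB3 (0.95 to 0.93), YTHDF2 came at rank 381 of 19100, and METTL14 at rank 5218 and RBM15 at rank 8274. Of these 5, SLC39A4 alone was also among the 5 highest by Spearman correlation.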

How the data were processed

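Raw guide counts per library were deposited by the authors in 3 tables, 1 per screen, with no normalization. Reads were handled with bcl2fastq, HISAT2 and HTSeq, per the submitters' processing notes; versions, reference and read filters were not stated in the material used. Library totals are those given with the results.

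Whole tables were fitted in R 4.3.3. Guides were kept by filterByExpr of edgeR 4.0.16 (minimum count 10, minimum total 15), scaled by TMM and tested 2-sided with the quasi-likelihood test, 1 mean per group. Ranks of each gene's guides were combined by RRA (alpha 0.25, exact null), 2 times the smaller p of both directions, with Benjamini-Hochberg adjustment over genes with at least 3 guides (1115 or 19101). Scripts were tested on counts simulated from these data, with 50 genes at each true log2 change. For whole-genome growth edgeR/RRA called 6% of genes at 2 or -2 and 0% at 1 or -1. For vemurafenib against DMSO at day 14 it called 98% to 100% at 2 or -2 in the epigenetic screens. At 1 or -1 it called 32% to 36% there in MED12 and 94% in MED23 knockout cells. Alternatives were other scalings, no filter, DESeq2 1.42.0, limma 3.58.1 on gene scores, summed counts, a replicate block and leaving out libraries. All 7 genes were named, further pathway genes where they passed, and VIRMA, FTO and ALKBH5 in any case. One gene among those most like METTL3 is not reported here. The genes, lists and comparisons were chosen with earlier results of these data known.

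Same-numbered libraries deviated together in both screens of MED12 knockout cells (correlation 0.341 to 0.889 and 0.463 to 0.842 over guides), so the numbers pair libraries there. In MED23 knockout cells vemurafenib paired with day 0 (0.303 to 0.324), as did DMSO library 3 with both (0.268 and 0.296), but DMSO libraries 1 and 2 did not (-0.169 to -0.125). No libraries of a group were near-duplicates.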

Additional observations from a re-analysis of the deposited data

Results flagged for a closer look

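The vemurafenib effect on METTL3 in MED12 knockout cells differed between days 14 and 8 by the test of the difference itself (score difference 0.31, edgeR/RRA adjusted p = 0.0290). At day 14 METTL3 guides 2, 3 and 4 had log2 fold changes of 3.29, 3.25 and 2.27, and at day 8 they had 1.27, 1.18 and 0.88, all for vemurafenib against DMSO. METTL3 guide 7 had 1.11 at day 14 and 0.54 at day 8. Guides 2, 3 and 4 are named because they were highest at day 14, so lower values at day 8 follow in part from that choice. The median difference over all METTL3 guides was 0.17, and the call held without only 3 of the 12 libraries in turn.

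The growth change of METTL14 differed between MED23 and MED12 knockout cells by the test of the difference (score difference -1.39, edgeR/RRA adjusted p = 0.0346). That gene call held in 8 of the 12 fits that each left out 1 library. Where it was lost, the median over guides was -1.46 to -1.17, with p-values of 0.0517 to 0.143 after adjustment (edgeR/RRA). METTL14 guide 5 passed singly, with a difference of -2.32 on the log2 scale (edgeR per guide, adjusted p = 0.0175). How many of all gene guides passed there is not given here, so the result for guide 5 is a description only.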

How the results depend on the processing

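Relative to edgeR/RRA, the number of m6A genes called moved as follows. With limma on gene scores the count was 0 in place of 1 for vemurafenib against DMSO at day 8 and for the day-14 minus day-8 effect in MED12 knockout cells (epigenetic screen), 2 in place of 1 for vemurafenib against day 0 there, 3 in place of 1 for growth and 1 in place of 0 for vemurafenib against day 0 in MED23 knockout cells, 2 in place of 0 for the vemurafenib effect and 2 in place of 1 for growth between the lines, and 2 in place of 1 for both comparisons against day 0 in the whole-genome screen. With summed counts it was 0, 0, 2, 2, 1, 0, 2, 2 and 4 in the same comparisons, and 2 in place of 1 for growth in MED12 knockout cells, as it was with control guides or library totals as the scale. DESeq2 gave 0 for the day-14 minus day-8 effect. The replicate block (the libraries' numbers as a term) gave 1 (METTL3, edgeR/RRA adjusted p = 0.0149) in place of 0 for the vemurafenib effect between the lines, and changed no other call of these genes. DMSO libraries 1 and 2 of MED23 knockout cells did not pair by number (correlation -0.169 to -0.125). The block therefore does not describe pairs there, and that p-value is limited by it. Leaving out 1 library gave 0 to 1, and 0 to 2 for growth in MED12 knockout cells (epigenetic screen), wherever it moved a count. Signs turned for METTL3 in MED12 knockout cells with summed counts (growth 0.41, vemurafenib against day 0 1.24) (without METTL3 guide 7 the summed abundance was 647 CPM in vemurafenib, 476 CPM in DMSO and 652 CPM at day 0), and with library totals for the day-14 minus day-8 effect (median -0.092, the cause was not tested). Over all genes, growth in the whole-genome screen gave 29 calls by edgeR/RRA, 15 by DESeq2, 276 by summed counts and 1603 by limma, and vemurafenib against day 0 there gave 10, 6, 3554 and 2339. In the epigenetic screens limma called 692 and 398 genes for growth in MED23 and MED12 knockout cells, against 203 and 58 by edgeR/RRA, and summed counts called 549 and 311. For vemurafenib against day 0 the counts in MED23 and MED12 knockout cells were 181 and 36 by edgeR/RRA, 603 and 404 by limma and 604 and 573 by summed counts. For vemurafenib against DMSO they were 19 (day 8), 16 (day 14) and 120 (MED23) by edgeR/RRA, and 0, 30 and 285 by summed counts. Limma gave 1 at day 8 and 433 in MED23 knockout cells. Between the lines 47 and 66 genes were called by edgeR/RRA for the vemurafenib effect and for growth, and 144 and 234 by limma. For the m6A genes alone, over all comparisons and alternatives, 492 outcomes stayed the same, either called or not called under both settings. Fits that left out a library were counted there only for genes that the main fit called. The threshold was lost in 27, gained in 20, and the sign turned in 3. Signs were compared only where at least 1 of the 2 settings called the gene. Low counts and 4 guides per gene limit the whole-genome values.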
